A study of Mus musculus with 4 samples.

Results

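The genes described here are those of the EGF receptor family and its EGF-like ligands, read in normal ureter and in ureter tumors of mice. The 10 genes are the receptors Egfr, Erbb2 and Erbb3 and the ligands Egf, Tgfa, Areg, Ereg, Btc, Hbegf and Epgn. They were read from every probe set that the platform annotation of the array assigns to 1 of these genes and to no other, which gave 20 of the 45101 probe sets on the array. These 20 cover 9 of the 10 genes, 10 probe sets for the receptors and 10 for the ligands, and Areg matched no probe set in that annotation and was not analysed here.

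The samples were 2 normal ureters and 2 ureter tumors of C57Bl/6 mice aged 6 to 8 weeks, and each was hybridised to its own Affymetrix 430 2.0 mouse chip. The study concerned Notch signaling in urothelial cancer, and urothelium is the lining of ureter and bladder. The treatment text names R26rtTA;teto-Cre;Ncstnf/f mice that received doxycycline from 3 weeks of age for 1 week, which removes nicastrin, a subunit of the gamma-secretase that cleaves Notch receptors. That text stands on all 4 samples, so the genotype of each group, and whether the normal ureters carried the same alleles or agent, is unknown from the sources used here. In this system rtTA is expressed from the Rosa26 locus, which is active in most cell types and not only in urothelium, and where recombination took place was not examined here. The labels call the samples biological replicates but name no animals. The p-values below measure the spread between these samples, pooled in part with the spread of other genes. A fit without 1 array holds no spread within the group that keeps 1 array.

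EGF-like ligands are made as membrane proteins, and sheddases of the ADAM family release their active part. Released ligand brings receptors together in pairs, which activates their kinase domains and, through adaptor proteins, Ras, ERK and PI3 kinase. Egfr binds all the ligands listed here. Erbb2 binds none of its own and acts as the partner in a pair, and Erbb3 has a weak kinase and binds neuregulins. In the urinary tract, this family is known for driving urothelial growth and repair, while Egf itself is a product of the distal tubule of the kidney and is shed into urine.

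The 4 arrays held more than urothelium, and the arrays of the tumor group differed from each other. The uroplakins and Krt20, 6 markers of umbrella cells, summed to signals of 25462 and 44270 in the normal ureters and of 863 and 758 in the tumors. Basal urothelial markers summed to 6580 and 10025 in the normal ureters, to 94224 on tumor replicate 1 and to 3767 on tumor replicate 2. The sum of 6 markers of epithelium in general lay between 46609 and 85136 on all 4 arrays. Its genes moved in opposite ways, 2 higher and 1 lower on both tumor arrays, and 3 overlapped. Summed kidney tubule markers were high in the normal ureters and on tumor replicate 2, and far lower on tumor replicate 1. A list of 5 proximal tubule genes summed to 23664 and 47254 in the normal ureters. On tumor replicate 1 that sum was 141 and on tumor replicate 2 it was 75146. A list of 8 distal tubule and loop genes summed to 10955 and 16774 in the normal ureters, to 1617 on tumor replicate 1 and to 112688 on tumor replicate 2. Fat cell genes summed to 219855 and 240184 in the normal ureters and to 36095 and 6127 in the tumors. The ratio of 3' to 5' signal of Gapdh was 0.92 and 0.923 in the normal ureters and 1.51 and 1.44 in the tumors, while that of Actb was 2.90 and 2.82 against 2.47 and 2.63.

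Across the family, no gene passed the test between tumor and normal ureter. Signals are MAS5 values, which are scaled within each array and have no unit, and a difference is tumor minus normal on the log2(signal + 16) scale. Each gene was read from its brightest probe set, and 7 of the 9 genes were bright enough to be tested, with a mean signal at or above 60.8. In limma, 0 of these 7 genes had a Benjamini-Hochberg adjusted p under 0.05, against 1.45% of all 13115 genes tested. At an unadjusted p under 0.05 there was 1, Hbegf, against 21.5% of all genes. In both tumors 3 genes were above both normal ureters, as were 29.7% of all genes, and 1 was below, as were 27.6% of all genes. These shares are near the background, so the counts are no result about the family.

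**Figure D1:**
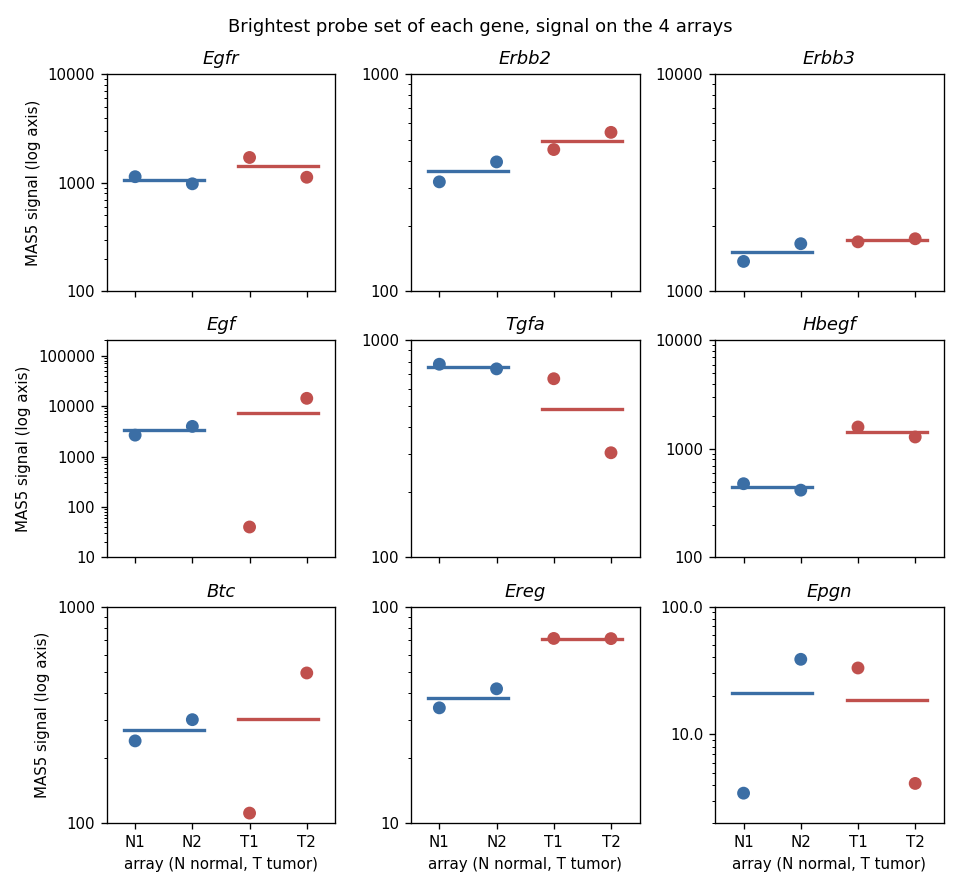
Each panel plots the MAS5 signal (log axis) of the brightest probe set of 1 gene on the 4 arrays, blue for normal ureter and red for ureter tumor, with a line at the mean of each pair. Hbegf is at 478 and 417 in the normal ureters and at 1593 and 1289 in the tumors, while Egf spans 40.03 to 14255 between the tumor arrays.

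The receptor genes gave small differences that did not pass. Egfr, the receptor that all these ligands bind, was read from 1435888_at at 1139 and 980 in the normal ureters and at 1714 and 1126 in the tumors. Tumor replicate 1 was the highest of the 4, and tumor replicate 2 lay between the normal arrays. The difference of Egfr was 0.39 (SE 0.28, limma adjusted p = 0.477, n = 2 per group), with a 95% interval from -0.38 to 1.16. Without tumor replicate 1 the difference was 0.09, and without tumor replicate 2 it was 0.69. On this probe set its size thus rested on tumor replicate 1. Each fit without a tumor array assumes that the remaining tumor array varies as the normal arrays did.

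Egfr had 7 probe sets, of which 4 were bright enough to be tested, and 0 passed. On 1424932_at the signal was 622 and 462 in the normal ureters and 702 and 747 in the tumors, a difference of 0.42 (SE 0.24, limma adjusted p = 0.376). On 1460420_a_at it was 332 and 212 against 418 and 439, a difference of 0.66 (SE 0.30, limma adjusted p = 0.286). These 2 probe sets were higher in both tumors than in both normal ureters, and on the other 5 the groups overlapped. Their differences did not rest on tumor replicate 1. Without it they were 0.47 and 0.69, and without tumor replicate 2 they were 0.38 and 0.63. The 3 dimmest, 1451530_at, 1457563_at and 1454313_at, had mean signals of 57.7, 27.5 and 18.5 and lay below the normal mean on tumor replicate 1 and above it on tumor replicate 2.

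Erbb2, the receptor without a ligand of its own, was at 320 and 395 in the normal ureters and at 450 and 540 in the tumors. Both tumor arrays were higher, and the difference of 0.46 (SE 0.25, limma adjusted p = 0.373, n = 2 per group) did not pass. Erbb3, the neuregulin receptor, was at 1373 and 1658 in the normal ureters and at 1690 and 1747 in the tumors. The tumor arrays lay just above the higher normal array, and the difference of 0.19 (SE 0.19, limma adjusted p = 0.617) had a 95% interval from -0.34 to 0.71. Leaving out normal replicate 1 gave 0.05, and leaving out the other normal array gave 0.32. The second probe set of Erbb3, 1452482_at, ranged from 3.16 to 32.7 and was too dim to be tested, and averaging both probe sets turned the difference to -0.09. For Erbb2 the interval ran from -0.24 to 1.15.

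Among the ligands, Hbegf had the smallest p and the largest difference of those whose tumor arrays lay on 1 side of the normal arrays. Hbegf encodes heparin-binding EGF-like growth factor, which is shed from epithelial cells and macrophages and is itself induced by EGF receptor signaling. On 1418350_at it was at 478 and 417 in the normal ureters and at 1593 and 1289 in the tumors, means of 447 ± 43.2 and 1441 ± 215 (SD, n = 2). The groups did not overlap, and the mean signal was 3.22-fold higher in the tumors. The difference of 1.65 (SE 0.22, limma adjusted p = 0.0654, n = 2 per group) did not pass, with a 95% interval of this gene alone from 1.04 to 2.26. The second probe set, 1418349_at, gave 199 and 142 against 733 and 608, a difference of 1.89 (SE 0.28, limma adjusted p = 0.0648 over 27022 probe sets).

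Hbegf was the 1 member past a rule of at least 2-fold at an unadjusted p under 0.05, which 14.5% of all genes passed. Its difference lay between 1.497 and 1.80 when any 1 array was left out. The limma adjusted p was 0.685 and 0.712 without normal replicate 1 and normal replicate 2, where no gene passed, and 0.000523 and 5.82e-05 without tumor replicate 1 and tumor replicate 2, where 31.7% and 41.6% of all genes passed. The macrophage and monocyte markers moved with it: all 8 were higher on both tumor arrays than on both normal arrays, and they summed to 18501 and 14809 in the normal ureters and to 60857 and 57026 in the tumors. All 5 plasma and B cell markers and 5 of 6 neutrophil markers were also higher on both tumor arrays, as were 29.7% of all genes tested. Only 4 of these plasma and B cell markers and 5 of the 6 neutrophil markers were bright enough to be tested. So were 3 of 5 basal urothelial markers and 2 of 6 markers of epithelium in general, of which 1 was lower. The same held for 3 of 6 fibroblast, 4 of 8 mast cell and 3 of 5 T, NK and innate lymphoid cell markers. The part of these cells in the Hbegf signal was not tested. In bulk tissue, a change in the number of cells that make a transcript and a change in RNA per cell cannot be told apart.

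Tgfa, which encodes TGF-alpha, the ligand that epithelial cells commonly make for their own receptors, was at 777 and 740 in the normal ureters and at 666 and 304 in the tumors. Both tumor arrays were lower, tumor replicate 1 only slightly so. The difference of -0.73 (SE 0.43, limma adjusted p = 0.396, n = 2 per group) did not pass. The summed markers of umbrella cells, fat cells, endothelium and nerve were also lower on both tumor arrays than on both normal arrays. These sums were lowest on tumor replicate 2. Sizes differed: the umbrella cell sum was already at 863 on tumor replicate 1, against 25462 and 44270 in the normal ureters. Upk1a and Upk3b were lowest on tumor replicate 1, the other umbrella cell markers on tumor replicate 2. In the endothelium list Kdr and Tek were lowest on tumor replicate 1, Pecam1 on tumor replicate 2 and Cdh5 on normal replicate 1. For endothelium the sums were 3871 and 3552 in the normal ureters and 3096 and 2923 in the tumors, and for nerve and Schwann cells 414 and 326 against 144 and 20.05. Gene by gene, 6 of 6 umbrella cell and 4 of 4 fat cell markers were lower on both tumor arrays, as were 27.6% of all genes. For endothelium 1 of 4 was lower and 3 overlapped. For nerve 2 of 2 were lower, of which 1 was bright enough to be tested. The basal urothelial sum was instead far above the normal arrays on tumor replicate 1. The part of these cells in the Tgfa signal was not tested. The dimmer probe sets 1450421_at and 1421942_s_at gave differences of -0.51 and -0.10, and on both of them the groups overlapped. Without tumor replicate 1 the difference on 1421943_at, the brightest probe set, was -1.28 and without tumor replicate 2 it was -0.18, so its size rested on tumor replicate 2.

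Egf had the widest gap of the family between arrays of 1 group. The gene makes the precursor of epidermal growth factor, a large membrane protein of the kidney's distal tubule. On 1418093_a_at, its only probe set here, the signal was 2655 and 3958 in the normal ureters, 40.03 on tumor replicate 1 and 14255 on tumor replicate 2. The tumor arrays thus lay on opposite sides of the normal arrays. The signal on tumor replicate 1 was under 60.8, the limit for testing a mean signal, so no fold between the tumor arrays is given. A wider gap between the tumor arrays on the log2 scale was found in 0.16% of all genes tested. The difference of -1.87 (SE 2.81, limma adjusted p = 0.74, n = 2 per group) did not pass, and it had the opposite sign to the difference in mean signal, 3307 ± 921 against 7148 ± 10052 (SD, n = 2). Without tumor replicate 1 the difference was 2.13, and without tumor replicate 2 it was -5.86. 

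Kidney tubule markers followed the same split between the arrays. Of the 8 distal tubule and loop genes, 7 were lower on tumor replicate 1 and higher on tumor replicate 2 than on both normal arrays, as were 5 of 5 proximal tubule genes and 11.5% of all genes tested. None of the other 13 marker lists held a gene with this split. Umod, the main protein of the loop of Henle, was at 4997 and 9982 in the normal ureters, at 1268 on tumor replicate 1 and at 57258 on tumor replicate 2. Calb1, a calcium-binding protein of the distal tubule, was at 2279 and 2228 in the normal ureters, at 3.92 on tumor replicate 1 and at 14203 on tumor replicate 2. The part of kidney tissue in the Egf signal was not tested.

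Btc, which encodes betacellulin, a ligand of Egfr and of Erbb4, showed the same split as Egf at a smaller size. On 1435541_at it was at 240 and 301 in the normal ureters, at 112 on tumor replicate 1 and at 494 on tumor replicate 2. The difference of -0.16 (SE 0.75, limma adjusted p = 0.923, n = 2 per group) did not pass and turned to 0.04 when each array was centred on its median, which moved the median difference of all genes by 0.20. Leaving out normal replicate 1 or normal replicate 2 gave -0.31 or -0.0062. Without tumor replicate 1 it was 0.84 and without tumor replicate 2 it was -1.16. The dimmer probe set, 1421161_at, had the same order at 37.8 and 47.9 in the normal ureters, 22.6 on tumor replicate 1 and 60.4 on tumor replicate 2. In both Egf and Btc the order from low to high was tumor replicate 1, normal replicate 1, normal replicate 2 and tumor replicate 2, an order that 6.28% of all genes tested had.

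**Figure D2:**
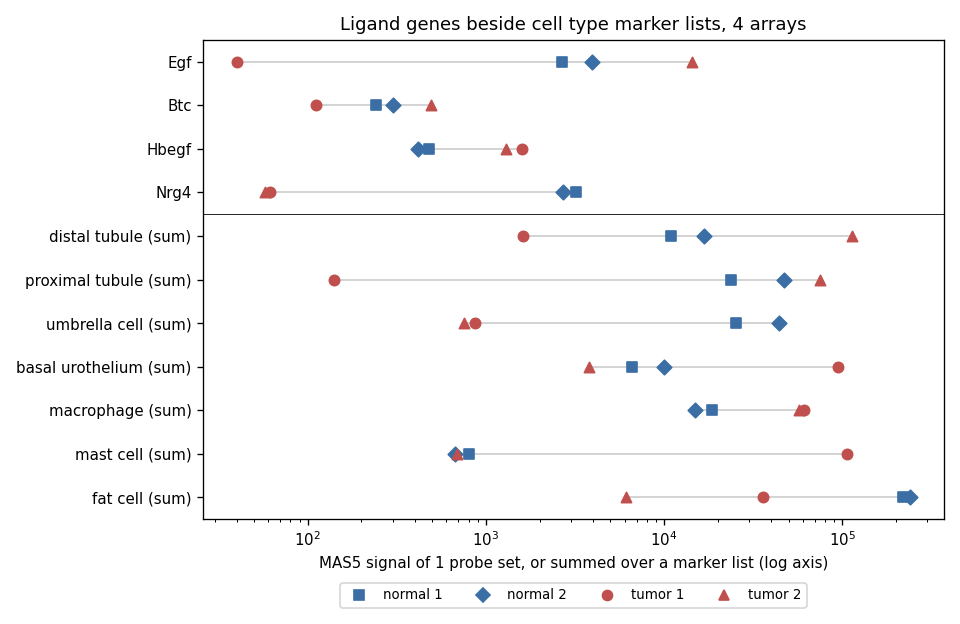
The signal on each of the 4 arrays (log axis) is plotted for 4 ligand genes and, below the line, for the summed signal of 7 cell type marker lists. Egf and Btc are lowest on tumor replicate 1 and highest on tumor replicate 2, as are both kidney tubule sums. Nrg4 is lower on both tumor arrays than on both normal arrays, as are the fat cell and the umbrella cell sums.

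The genes with the profile most like that of Egf over the 4 arrays were Hgd, Hao2 and Spink1, with root mean square distances of 0.12, 0.12 and 0.17 on the log2 scale. Hao2, for example, was at 2270 and 4130 in the normal ureters, at 37.3 on tumor replicate 1 and at 12180 on tumor replicate 2. For Btc, which had the smallest difference of the 7 members tested, they were Stard5, Aldh9a1 and Fhit, at distances of 0.05, 0.06 and 0.06. Stard5 was at 754 and 885 in the normal ureters, at 355 on tumor replicate 1 and at 1382 on tumor replicate 2. These likenesses rest on 4 arrays.

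The sequences just upstream of Egf and Btc are shown because these were the members with the same order of arrays. They are the 250 bases before the annotated start, from RefSeq promoters of build GRCm38.p6, where 7 of the 10 genes were matched, and both genes lie on the minus strand. Each is printed 5' to 3' as transcribed, in lower case throughout since no base belongs to a matched motif.
Egf chr3:129755323-129755572: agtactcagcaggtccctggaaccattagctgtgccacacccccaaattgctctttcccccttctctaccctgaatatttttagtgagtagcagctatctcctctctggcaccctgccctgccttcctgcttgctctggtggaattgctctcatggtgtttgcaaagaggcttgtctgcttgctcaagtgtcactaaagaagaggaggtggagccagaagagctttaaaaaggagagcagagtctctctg
Btc chr5:91402995-91403244: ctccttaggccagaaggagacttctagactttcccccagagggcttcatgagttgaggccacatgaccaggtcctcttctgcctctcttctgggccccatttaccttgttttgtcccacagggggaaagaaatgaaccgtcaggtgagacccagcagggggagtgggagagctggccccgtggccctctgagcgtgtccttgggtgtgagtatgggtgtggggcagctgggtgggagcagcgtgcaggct
Neither window held any of 6 motifs searched on both strands, and the share of 32851 such windows that held each is given here. TATAAA, the core promoter element, was in 12.4% of them and GGGCGG, the box bound by Sp1, in 32.7%. TGANTCA, the site of AP-1, was in 6.75% and TGACGTCA, the cyclic AMP response element, in 1.55%. CACGTG, the E-box, was in 6.02% and AGGTCA, a nuclear receptor element, in 14% of them. Matches of different motifs were counted separately, so they may overlap. The share of G and C was 50.4% in the Egf window and 59.6% in the Btc window, against a median of 52.4%. Among the other matched members, for example, the Egfr window held GGGCGG on the opposite strand, 9 to 4 bases before the start, and the Epgn window held TATAAA, 86 to 81 bases before it. That these letters are missing from a window says nothing of the factors that act on the gene.

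Ereg and Epgn, the remaining ligands, were dim on all 4 arrays. Ereg, which encodes epiregulin, was at 34.1 and 41.8 in the normal ureters and at 71.3 and 71.2 in the tumors. Both tumor arrays were higher, but the mean signal of 54.6 lay under the limit for testing. With no such limit, the difference of 0.70 had a limma adjusted p = 0.44 over 18193 genes. Epgn, which encodes epigen, was at 3.45 and 38.6 in the normal ureters and at 33.0 and 4.12 in the tumors, so each group spread over about the whole range. With no limit its difference was -0.05 (limma adjusted p = 0.982). The sources used here give no detection calls, so whether such low signals stood above background is not known. Epgn, Ereg, Areg and Btc are neighbours on 1 chromosome, in that order and with 0 other protein-coding genes between them in RefSeq.

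**Figure D3:**
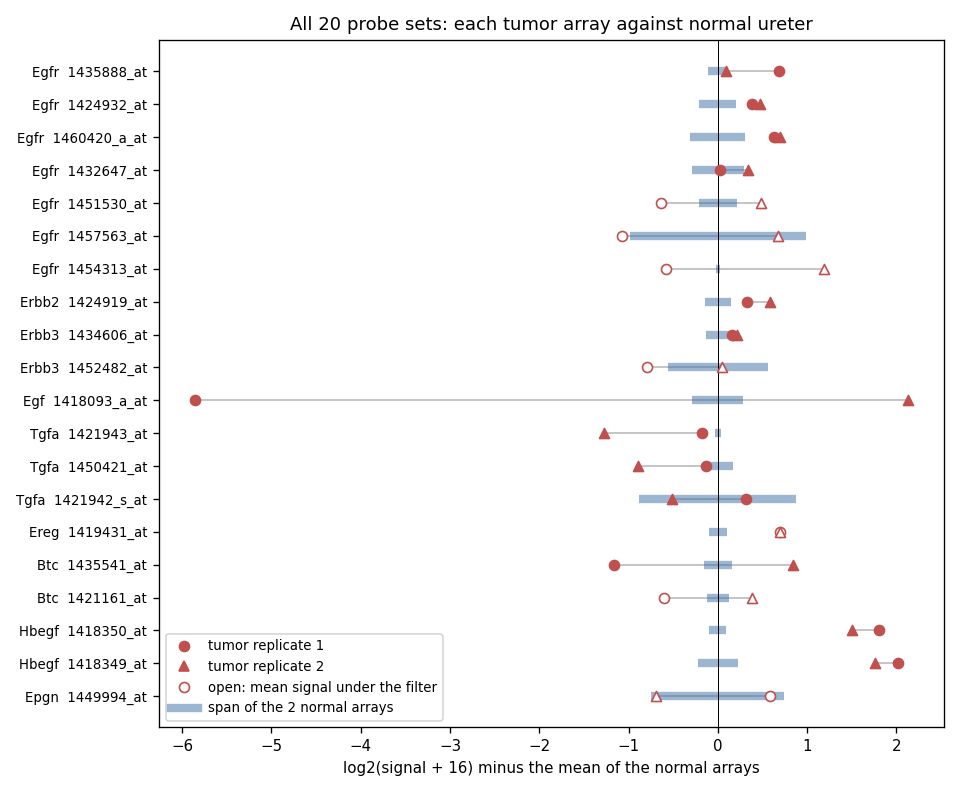
For each of the 20 probe sets, the log2(signal + 16) of tumor replicate 1 (circle) and tumor replicate 2 (triangle) is plotted relative to the normal mean, with a bar for the span of the 2 normal arrays and with open symbols for the 7 probe sets under the filter. Both Hbegf probe sets lie to the right of the normal span on both tumor arrays, and Egf spans -5.86 to 2.13.

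Taking all 20 probe sets, 7 were higher on both tumor arrays than on both normal arrays, 1 was lower and 12 overlapped. The matching share over all probe sets without the filter was not computed. Of the 13 bright enough to be tested, 6 were higher and 1 was lower on both tumor arrays, against 25.6% and 31.8% of all probe sets tested. The 6 include 2 probe sets of Egfr and 2 of Hbegf, which are repeated readings of 1 gene each. These counts are no result about the family. In limma 0 of the 13 passed, against 1.81% of all probe sets tested. Within groups, the tumor arrays were farther apart than the normal arrays for 5 of the 7 genes tested, Erbb2 and Erbb3 being the exceptions. The median gap was 0.60 between the tumor arrays and 0.27 between the normal arrays on the log2 scale, against 0.47 and 0.20 over all genes tested. The median difference of the 7 genes was 0.19, against 0.03 over all genes, and the differences ran from -1.87 to 1.65.

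**Figure D4:**
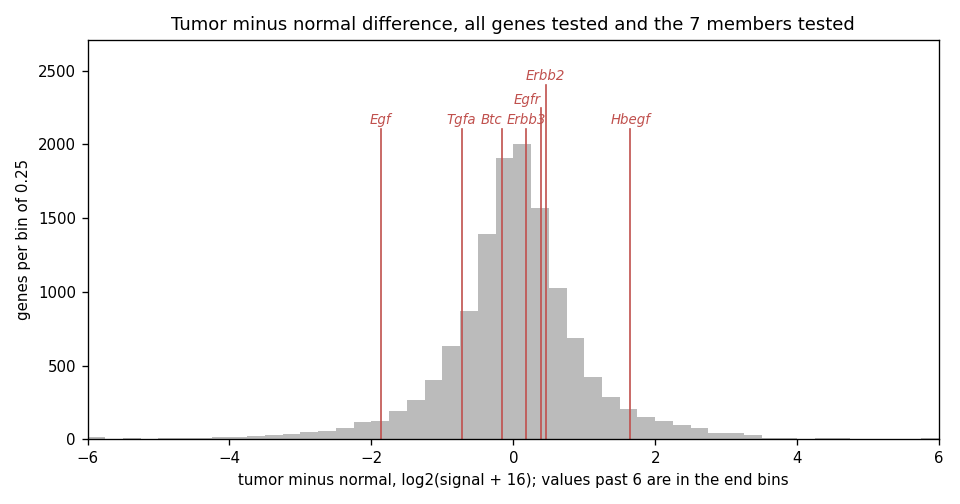
The histogram counts the 13115 genes tested by their tumor minus normal difference on the log2 scale (bins of 0.25), and red lines mark the 7 members tested. The receptors, Btc and Tgfa lie in the central bulk, between -0.73 and 0.46, with Egf at -1.87 and Hbegf at 1.65.

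Of the other ligands and the remaining receptor of the ErbB family, Nrg4 fell in the tumors. Nrg4 encodes neuregulin 4, a ligand of Erbb4 that brown fat secretes. Its signal on 1421681_at was 3186 and 2717 in the normal ureters and 61.4 and 57.9 in the tumors, with no overlap. The difference was -5.29 (SE 0.22, limma adjusted p = 0.0304, n = 2 per group), and a second probe set, 1457123_at, gave -4.67. Markers of several cell types were lower on both tumor arrays too, as were 27.6% of all genes tested. These were 4 of 4 for fat cells, 6 of 6 for umbrella cells and 5 of 5 for smooth muscle. For nerve they were 2 of 2, of which 1 was bright enough to be tested. The smooth muscle markers summed to 47707 and 37287 in the normal ureters and to 12046 and 19595 in the tumors. Among the fat cell genes, Ucp1, the uncoupling protein of brown fat, was at 19660 and 21580 in the normal ureters and at 3.15 and 3.41 in the tumors. The part of these cells in the Nrg4 signal was not tested. Of the 5 genes of this list 3 were tested, 1 fell and 0 rose. Nrg1 and Nrg2 had differences of 0.73 and -0.31 (limma adjusted p = 0.36 and 0.735), and Erbb4 and Nrg3 were too dim to be tested. Without normal replicate 1 or normal replicate 2 no gene of the whole table passed, and the difference of Nrg4 was -5.18 or -5.40. Its call also ended with no intensity trend in the fit (limma adjusted p = 0.0626).

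Genes that release the ligands, 11 in all and all tested, gave 0 past the test, with a median difference of 0.24. Adam19, a membrane protease, had a difference of 1.58 (SE 0.47, limma adjusted p = 0.181, n = 2 per group), and its signal was 335 and 225 in the normal ureters and 1251 and 579 in the tumors. Frmd8, which stabilises the complex of Adam17 and iRhom, had a difference of 0.63. The proteases Adam9 and Adam12 had differences of 1.15 and -0.83 (limma adjusted p = 0.296 and 0.339). Adaptor, Ras and kinase genes were tested for 19 of 24 and gave 0 past the test, with a median of -0.01. Stat3, a transcription factor downstream of receptors and of cytokines, had a difference of 1.31 (SE 0.19, limma adjusted p = 0.0738). With the mean over its probe sets the difference of Stat3 was 0.74 (limma adjusted p = 0.239). The kinase gene Braf, the PI3 kinase subunit Pik3r1 and the kinase Akt2 had differences of -0.69, -0.82 and -1.12 (limma adjusted p = 0.155, 0.163 and 0.172).

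Negative regulators gave 0 of 17 past the test, with a median of 0.20. Socs3, an inhibitor of cytokine and growth factor signaling, was at 203 and 204 in the normal ureters and at 6995 and 2685 in the tumors. Its difference of 4.31 (SE 0.51, limma adjusted p = 0.0542, n = 2 per group) did not pass. The phosphatase gene Ptpn1, Ubash3b and Socs4 had differences of 1.06, 1.61 and 0.46 (limma adjusted p = 0.175, 0.183 and 0.298). Genes that EGF receptor and ERK signaling induce gave 2 of 12 tested past the test, both higher, against 1.45% of all genes in either direction, and 8 of the 12 were higher on both tumor arrays, against 29.7% of all genes. The early response gene Ier3 rose by 2.18 (limma adjusted p = 0.0414) and the transcription factor gene Egr2 by 2.90 (limma adjusted p = 0.0448). Neither call held when arrays were centred on their medians (limma adjusted p = 0.0506 and 0.0507), when the fit had no intensity trend (0.0657 and 0.0626) or when a normal array was left out (0.662 to 0.678). The call of Egr2 also ended with no limit on dim genes and with a limit at the 60th percentile (limma adjusted p = 0.0599 and 0.0615). Myc and Mcl1, a growth regulator and a survival factor, had differences of 1.40 and 0.79 (limma adjusted p = 0.0825 and 0.128). This list overlaps groups already examined in these data, and other signals induce its genes too. The macrophage and the plasma and B cell markers and the Gapdh ratio given above were higher in both tumors as well, and their part in these signals was not tested. The 62 pathway genes tested had a median difference of 0.22, against 0.03 over all genes.

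**Figure D5:**
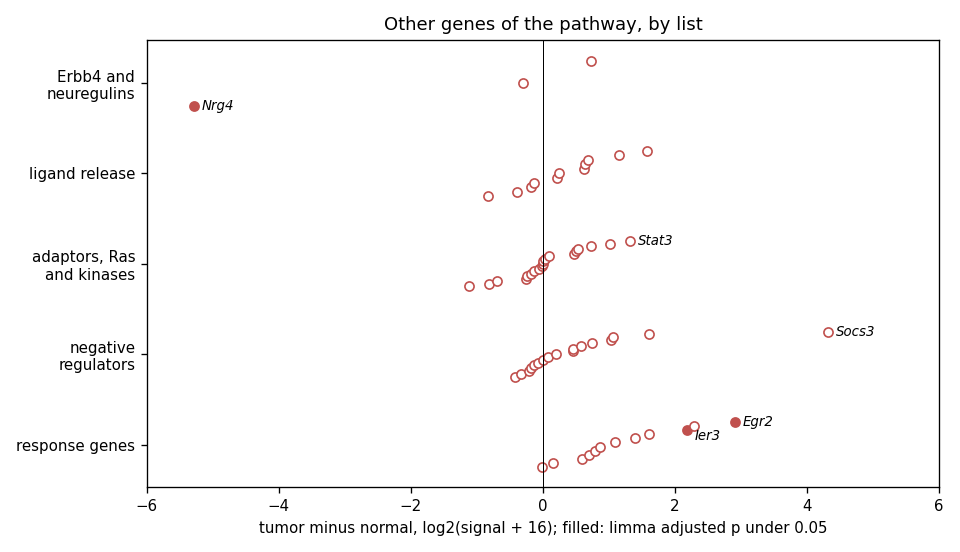
Each point is the tumor minus normal difference on the log2 scale of 1 of the 62 other pathway genes tested, by list, and filled points had a limma adjusted p under 0.05. The filled points are Nrg4 at -5.29, Ier3 at 2.18 and Egr2 at 2.90.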

How the data were processed

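Total RNA of 2 normal ureters and 2 ureter tumors was hybridised to 1-colour arrays, 1 per sample, from 6 ug of RNA per the labels' protocols. The authors deposited 1 linear intensity for each probe set, which the submitters' processing notes credit to MAS5; the sources used here give no version and no detection calls. Each array's mean, trimmed by 2% at each end, was 500, so an intensity is relative to its own array.

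The 64 control probe sets were left out. Gene symbols came from the platform annotation, updated by gene ID through RefSeq. For each gene the brightest of its single-gene probe sets by mean signal was used, and 13115 of 18193 genes at or above the 40th percentile of mean signal (60.8) were tested, 27022 in a fit of single probe sets. limma 3.58.1 in R 4.3.3 was run on log2(signal + 16) with an intensity trend, two-sided, with Benjamini-Hochberg adjustment over all genes and 0.05 as the threshold (2 residual and 2.09 prior degrees of freedom), and checked on simulated data. An exact permutation test of 2 against 2 cannot go below p = 0.333. Intervals are limma's, at 95%.

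The members and lists were chosen with earlier results of these data known. Named genes are all members, up to 4 per pathway list with the smallest p, the 3 genes nearest in profile to the members with the largest and the smallest difference, and the brightest markers; Ucp1 and Calb1 were chosen after their values were seen. Alternatives were pseudocounts of 1 and 64, quantile normalization, median centring, no filter, a 60th percentile filter, mean over probe sets, no or robust trend, the replicate block, a 2-fold rule and each array left out. The 4 arrays limit the precision of every value. Figures used matplotlib 3.10.9.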

Additional observations from a re-analysis of the deposited data

How the results depend on the processing

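The count of members past limma's test stayed at 0 under every alternative run except 3. It was 1 under the 2-fold rule, 3 without tumor replicate 1 and 4 without tumor replicate 2, so it ranged from 0 to 4 over the left-out arrays. For member probe sets the count was 2 under the 2-fold rule and ranged from 0 to 5 over the left-out arrays. The highest counts of member genes and probe sets came from the fits that leave 1 tumor array. In those fits a large share of all genes passed too, as given above for Hbegf, and so did many of all probe sets. These member counts are thus no result about the family. Over all genes, 190 passed, 27 with median centring, 69 with no filter, 104 with the mean over probe sets, 2 with no intensity trend (2757 at an unadjusted p under 0.05) and 1903 under the 2-fold rule; leaving out an array gave 0 to 5452. Without normal replicate 1 or normal replicate 2, 898 and 884 genes had an unadjusted p under 0.05. Of the pathway genes, 3 passed, 1 with median centring, 0 with no intensity trend, 12 under the 2-fold rule and 0 to 30 with an array left out. The replicate number as a block gave 0 genes over all, 0 members and 0 pathway genes, with 2287 genes at an unadjusted p under 0.05; same-numbered arrays correlated at 0.04 in their deviations, and the labels give the numbers no further meaning.

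Without an array, Egf ranged from -5.86 to 2.13 and Btc from -1.16 to 0.84. Btc turned to 0.036 with median centring and Erbb3 to -0.0914 with the mean over probe sets. Read as genes, Egfr, Erbb2, Hbegf and Tgfa kept their direction in all 15 alternatives that gave a difference. Their single probe sets did not always do so. For Tgfa, 1421942_s_at turned to 0.09 with quantile normalization and to 0.10 with median centring. For Egfr, 1432647_at turned to -0.11 without normal replicate 2. Choosing probe sets and the filter by the mean of log2 values, an alternative added after seeing the data, gave 187 of 13046 genes and 0 members. Signal over background is not known, which limits Ereg, Epgn and the dim probe sets of Egfr and Erbb3.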
